A study of Mus musculus with 6 samples.

Results

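The nuclear genes of oxidative phosphorylation comprise here the 83 genes of 24062 in the deposited count table whose symbols name subunits of the respiratory chain complexes and of ATP synthase. They were taken by symbol: Nduf followed by a, b, c, s, v or ab and a number, Sdha to Sdhd, every Uqcr, Cox4, Cox5, Cox6, Cox8, Cox7a, Cox7b and Atp5 gene, leaving out pseudogene symbols with the ending -ps, of which there were 0. By complex, 37 genes belonged to complex I, 4 to complex II, 8 to complex III, 17 to complex IV and 17 to complex V. The symbols take in 3 genes that do not encode subunits. They are Cox7a2l, a factor that holds complexes III and IV together in supercomplexes, Atp5s, known as a coupling factor of ATP synthase, and Atp5sl, known as an assembly factor for the membrane arm of complex I. Ndufa4 was named as a complex I gene, and its protein is now regarded as a subunit of complex IV. Cyc1, Cycs and Cox7c are not matched by these symbols.

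Complexes I and II pass electrons from NADH and succinate to ubiquinone, complex III passes them on to cytochrome c, and complex IV, cytochrome c oxidase, gives them to oxygen. Complexes I, III and IV pump protons across the inner mitochondrial membrane, and complex V, ATP synthase, uses the gradient to make ATP. Spiral ganglion neurons, whose axons form the auditory nerve, fire at high rates and spend much ATP on ion pumping. Most subunits are encoded in the nucleus, and several complex IV subunits have a second gene used mainly in striated muscle, lung or testis.

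RNA was sequenced from microdissected auditory nerves of young adult mice in 2 groups, Vcan knockout and wildtype, with 3 libraries each. Each library held the nerves of both cochleae of 1 mouse. Both groups are labelled C57BL/6, and the submitters' design text gives the wildtype mice as C57BL/6J. Which bases of Vcan were altered, and in which cells, the labels do not give. Vcan encodes versican, a chondroitin sulfate proteoglycan of the extracellular matrix.

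The libraries held 74530860 to 92513887 counts. Vcan itself had 413, 249 and 248 counts in knockout nerves, against 697, 864 and 626 in wildtype nerves, 3.67 ± 1.54 and 8.43 ± 1.15 CPM (counts per 1000000 counts; SD, n = 3 each). Its log2 fold change was −1.20 (SE 0.32), which did not pass in edgeR's quasi-likelihood test (adjusted p = 0.558) and passed in DESeq2 (adjusted p = 0.0327). At an adjusted p under 0.05, edgeR called 23 of 16722 genes tested and DESeq2 called 256 of the 17735 genes to which it gave an adjusted p. All pairs of libraries differed by more than sampling noise, with a chi-square per degree of freedom of 36.3 or more, lowest between knockout replicates 2 and 3. Knockout replicate 1 differed less from wildtype replicate 1 (75.1) than from knockout replicates 2 and 3 (276 and 262). Likewise, wildtype replicate 2 differed less from knockout replicates 2 and 3 (77.4 and 92.5) than from wildtype replicate 1 (123). Wildtype replicate 3 differed most from every other library (408.5 to 508.2). The defining markers of the tissue were present: 12 Schwann cell markers, genes of the myelinating glia, summed to 6579 to 8953 CPM in knockout libraries and 6113 to 9548 CPM in wildtype libraries.

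None of the oxidative phosphorylation genes passed a test of the difference between the genotypes. Of the 83 genes, 81 passed the filter on low counts. The 2 others were Cox8c, the testis form of a small complex IV subunit, with 0 counts in each library, and Ndufs5, described below with its near-copy. A count of 0 allows up to 0.0324 to 0.0403 CPM in a library of this depth, for counting error only. This limit does not cover reads lost in mapping or counting. Of 83 cytosolic ribosomal protein genes, 2 also had 0 counts in each library. Rpl26, named after its values were seen, was among them. edgeR called 0 of 81 members, where it called 0.138% of all genes, and the members' adjusted p was 0.9996 throughout. At an unadjusted p under 0.05 it called 0 members, against 5.2% of all genes. DESeq2 called 0 members (1.44% of all genes) and 0 at an unadjusted p under 0.05 (5.88%), and the authors' deposited table called 0 (1.34%). The lowest unadjusted edgeR p among members was 0.108, that of Ndufv3.

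The intervals of the fold changes were narrow for most members. The 95% interval lay wholly inside a 2-fold change for 75 of 81 members (92.6%), where 64.4% of all genes had such an interval. It lay inside a 1.5-fold change for 47 members, against 33.2% of all genes. The 6 members whose interval reached past 2-fold were all complex IV genes, namely Cox5a, Cox6b2, Cox7b2, Cox8b, Cox6a2 and Cox7a1. All but Cox5a are alternative isoforms, at a lower level in the nerve than the common form. Of these, Cox6a2 and Cox7b2 had few counts, 10 to 69 and 1 to 32 in a library. Cox8b had 680 to 3164 counts, Cox7a1 341 to 1885 and Cox6b2 403 to 1040. Fold changes ran from −0.85 (Cox7a1) to 0.38 (Cox5a) on the log2 scale, and the members' median SE was 0.19.

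**Figure D1:**
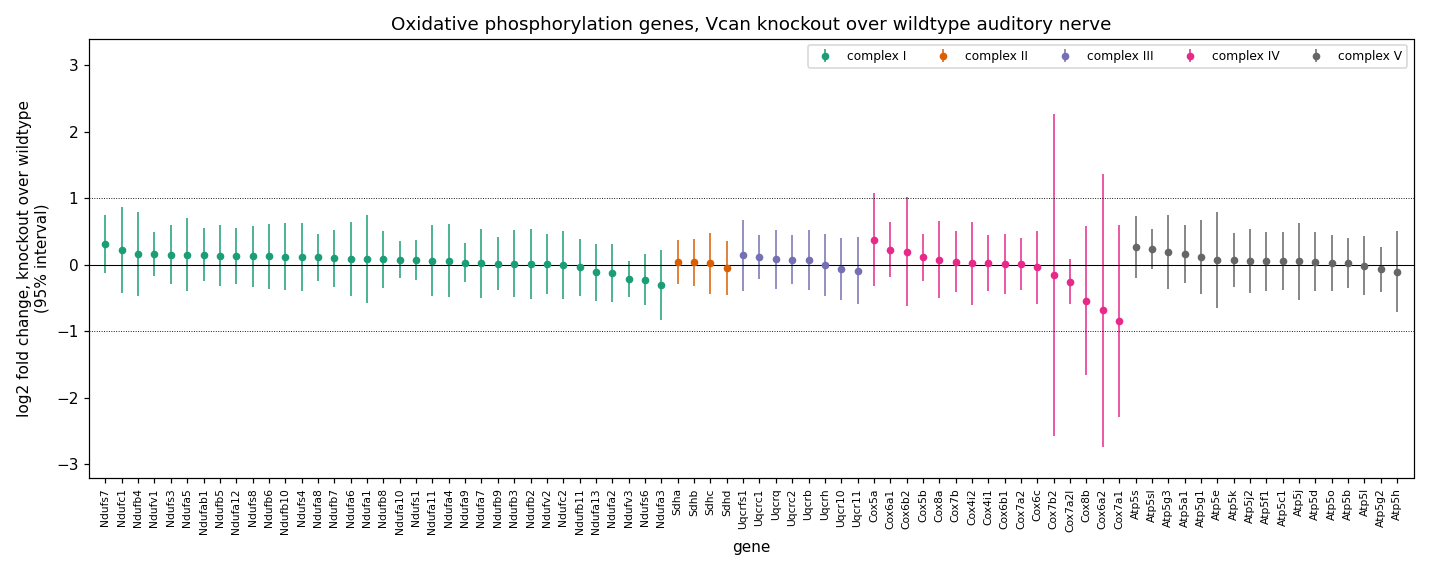
Log2 fold change of the oxidative phosphorylation genes tested, 1 of complex I left out, knockout over wildtype, with its 95% interval from edgeR, grouped by complex and ordered by fold change (vertical axis in log2 units, dotted lines at 2-fold changes). Every interval drawn includes 0, and 6 intervals, all of complex IV genes, reach past a dotted line.

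Summed over the members, the share of all counts was 1.26%, 1.59% and 1.64% in the knockout libraries, against 1.32%, 1.56% and 1.40% in the wildtype libraries. The ranges overlapped, and knockout replicate 1 had the lowest sum of all 6 libraries. The ratio of the group means was 1.05. It was 1.05 for complex I, 1.02 for complex II, 1.04 for complex III and 1.06 for complexes IV and V. In bulk nerve RNA, fewer cells of a type and less RNA per cell cannot be told apart.

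The knockout and wildtype libraries did not overlap in 3 of 81 members (3.70%), against 10.3% of all genes. Of these, 1 (Atp5sl) lay above in knockout, where 5.42% of all genes did, and 2 (Cox7a2l and Ndufv3) lay below, where 4.93% of all genes did. Among fitted values, those above 0 were more common than those below. In the knockout, 63 of 81 members had the higher fitted value (77.8%), where 48.9% of all genes did, and the members' median log2 fold change was 0.06 against −0.01 over all genes. Among all genes of under 700 bases, and of 700 to under 1200 bases, 59.1% and 60.4% were higher. After centring on genes of like transcript length, an alternative added after the data were seen, 45 members were higher. The count also depended on single libraries. It was 38 without knockout replicate 2, 32 without knockout replicate 3 and 40 without wildtype replicate 1, and the median was then −0.01, −0.03 and −0.0017. By complex, 30 of 36 members were higher in complex I (median 0.09), 3 of 4 in complex II (0.03), 6 of 8 in complex III (0.08), 10 of 16 in complex IV (0.02) and 14 of 17 in complex V (0.06).

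Complex I members summed to 3385, 4568 and 4680 CPM in knockout nerves, against 3701, 4494 and 3876 CPM in wildtype nerves. Knockout replicate 1 was the lowest library and knockout replicates 2 and 3 the highest, so the groups overlapped. Ndufa4 reached 236, 373 and 383 CPM in knockout nerves, against 288, 374 and 286 CPM in wildtype nerves (log2 fold change 0.06). Its group ranges overlapped.

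Of all complex I members, Ndufs7, the subunit of the last iron-sulfur cluster before ubiquinone, had the highest fold change. It was at 89.8, 121 and 132 CPM in knockout nerves, against 81.3, 104 and 91.3 CPM in wildtype nerves (log2 fold change 0.31, SE 0.18). Its groups overlapped through knockout replicate 1, which lay below 2 of the wildtype libraries. Ndufv3, an accessory subunit of the NADH-binding module, was the only complex I member whose groups did not overlap. It had 68.1, 67.1 and 69.2 CPM in knockout nerves, against 73.4, 80.0 and 83.0 CPM in wildtype nerves (log2 fold change −0.21, SE 0.11). Its lowest library was knockout replicate 2 and its highest wildtype replicate 3. The catalytic flavin subunit Ndufv1 had 203, 234 and 252 CPM in knockout nerves, against 203, 218 and 196 CPM in wildtype nerves (log2 fold change 0.16, SE 0.14). It is named here after its values were seen, to stand beside Ndufv3.

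Complex II, the only complex made wholly of nuclear-encoded subunits, summed to 932, 1084 and 1115 CPM in knockout nerves, against 998, 1082 and 990 CPM in wildtype nerves. Its flavoprotein Sdha, which oxidises succinate in the citric acid cycle, was at 579, 612 and 643 CPM in knockout nerves, against 608, 605 and 567 CPM in wildtype nerves. The iron-sulfur subunit Sdhb was at 139, 172 and 177 CPM in knockout nerves, against 145, 171 and 159 CPM in wildtype nerves. The group ranges overlapped in both. The membrane anchor Sdhd, at 122, 163 and 164 CPM in knockout nerves against 144, 175 and 143 CPM in wildtype nerves, was the 1 complex II member with a fitted value below wildtype.

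Complex III summed to 1129, 1482 and 1524 CPM in knockout nerves, against 1211, 1451 and 1298 CPM in wildtype nerves. Its core proteins Uqcrc1 and Uqcrc2 were its most abundant transcripts by count. Uqcrc2 had 293, 355 and 370 CPM in knockout nerves, against 306, 354 and 305 CPM in wildtype nerves. The Rieske iron-sulfur protein gene Uqcrfs1 had 113, 177 and 178 CPM in knockout nerves, against 126, 170 and 127 CPM in wildtype nerves. Both genes had their lowest value in knockout replicate 1 and their highest in knockout replicate 3, and the groups overlapped.

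Complex V summed to 5174, 6081 and 6352 CPM in knockout nerves, against 5258, 5929 and 5467 CPM in wildtype nerves. The catalytic beta subunit Atp5b was the most abundant member, at 1804, 1582 and 1737 CPM in knockout nerves, against 1705, 1606 and 1724 CPM in wildtype nerves (log2 fold change 0.03). It was highest in knockout replicate 1, where most members were lowest. The alpha subunit Atp5a1, its partner in the catalytic ring, had 1238, 1550 and 1649 CPM in knockout nerves, against 1270, 1442 and 1246 CPM in wildtype nerves (log2 fold change 0.16, SE 0.18). Atp5a1 followed the common order of libraries, with knockout replicate 1 lowest, and its groups overlapped.

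Among complex V members only Atp5sl had groups that did not overlap. It was at 61.6, 60.9 and 67.2 CPM in knockout nerves, against 57.1, 56.1 and 47.9 CPM in wildtype nerves (log2 fold change 0.24, SE 0.13). Atp5s, the other factor, was at 22.3, 30.4 and 30.9 CPM in knockout nerves, against 22.5, 27.5 and 19.3 CPM in wildtype nerves (log2 fold change 0.27). Its knockout replicate 1 fell between the wildtype libraries. Atp5h, the gene of a peripheral stalk subunit, is named after its values were seen because it ran against the other members. It had 186, 129 and 133 CPM in knockout nerves, against 124, 142 and 215 CPM in wildtype nerves, and was highest in wildtype replicate 3 and knockout replicate 1. Of the 50-base stretches in the Atp5h transcript, 50.5% also occur in another gene.

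Complex IV summed to 1944, 2701 and 2715 CPM in knockout nerves, against 2009, 2648 and 2323 CPM in wildtype nerves. Cox5a, a subunit on the matrix side, had the highest fold change of all members. It was at 238, 410 and 417 CPM in knockout nerves, against 245, 363 and 212 CPM in wildtype nerves (log2 fold change 0.38, SE 0.30). Wildtype replicate 2 lay with the 2 high knockout libraries, and knockout replicate 1 with the 2 low wildtype libraries. The supercomplex factor Cox7a2l was the third member, with Ndufv3 and Atp5sl, whose groups did not overlap. It was at 119, 140 and 136 CPM in knockout nerves, against 141, 177 and 150 CPM in wildtype nerves (log2 fold change −0.25, SE 0.14). The nearest libraries were knockout replicate 2 (139.5 CPM) and wildtype replicate 1 (141.4 CPM), and the unadjusted edgeR p was 0.123 (adjusted p = 0.9996). Lying below in this way was seen in 4.93% of all genes. Of the 50-base stretches in the Cox7a2l transcript, 19.8% also occur in another gene. The summed transcripts of complexes III and IV, the latter counting Cox7a2l itself, had ratios of 1.04 and 1.06.

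**Figure D2:**
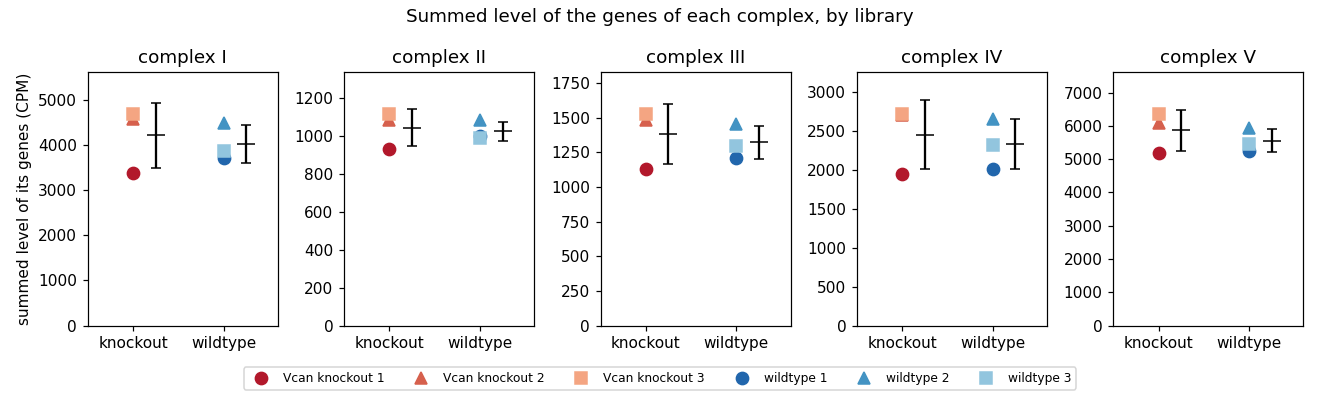
Summed CPM of the members of each complex in every library, knockout left of wildtype (vertical axis in CPM, 1 point per library, bars for the mean ± SD, n = 3 each). In each complex, knockout replicate 1 is the lowest point and knockout replicate 3 the highest.

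Levels can be compared between genes only per length of transcript, here CPM per 1000 bases of the principal transcript. On that scale Atp5b was highest, at 891 ± 59.4 in knockout and 876 ± 33.1 in wildtype nerves (SD, n = 3 each). Several genes followed at like levels, in another order in each genotype, and 3 of them are given here. In wildtype nerves Cox8a (518.6) and Ndufa4 (518.5) also stood above Atp5g3. Atp5a1 was at 599 ± 86.8 in knockout and 534 ± 43.3 in wildtype nerves. Atp5g3, a gene of the ring subunit c, was at 581 ± 140 in knockout and 509 ± 85.1 in wildtype nerves. Cox4i1, the largest nuclear-encoded complex IV subunit, was at 576 ± 79.8 in knockout and 566 ± 68.7 in wildtype nerves. Atp5b stood above these 3 beyond their spread in both genotypes, and the 3 did not differ from each other beyond theirs. Sdha, long and abundant by count, was at 211 ± 11 per 1000 bases in knockout and 205 ± 7.80 in wildtype nerves. Lowest of the complex I genes that passed the filter was Ndufab1, the mitochondrial acyl carrier protein, named after its values were seen, at 22.2 in knockout and 20.0 in wildtype nerves, on a principal transcript of 3479 bases, the longest among members. By count Ndufab1 had 65.7, 82.4 and 84.0 CPM in knockout nerves, against 66.6, 81.6 and 60.7 CPM in wildtype nerves. Members of 1 complex differed widely in level per length of the principal transcript. Whether the nerve holds that transcript of each gene was not tested.

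The main pattern among members ran over libraries and not over genotypes, and was noticed after the values were seen. In 58 of 81 members (71.6%) the 3 highest libraries were knockout replicates 2 and 3 and wildtype replicate 2, where 18% of all genes had those 3 highest. Knockout replicate 1 was the lowest library in 57 members (70.4%), against 20.4% of all genes. The median log2 level of the members relative to the wildtype mean was −0.27, 0.19 and 0.20 in the knockout libraries, against −0.15, 0.18 and −0.06 in the wildtype libraries. Over all genes these medians lay between −0.01 and 0.02. Each complex showed the same split. Complex I was at −0.28, 0.24 and 0.26 in knockout libraries, against −0.15, 0.19 and −0.07 in wildtype libraries, and complex II at −0.26, 0.10 and 0.14 in knockout libraries, against −0.11, 0.14 and −0.03 in wildtype libraries.

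Transcript length moved with this pattern. The members have short transcripts, with a median of 742 bases (315 to 3479), where the median of all genes was 2772 bases. Over all genes under 700 bases, the median relative log2 level was −0.29, 0.23 and 0.17 in the knockout libraries, against −0.19, 0.13 and 0.04 in the wildtype libraries. Over all genes of 5000 bases or more it ran the other way, at 0.24, −0.24 and −0.24 in knockout libraries, against 0.14, −0.19 and 0.05 in wildtype libraries. The 35 members under 700 bases were at −0.39, 0.23 and 0.18 in knockout libraries, against −0.20, 0.20 and 0.03 in wildtype libraries. Only 4 members had at least 2000 and under 3000 bases, and they were at −0.02, 0.05 and 0.14 in knockout libraries, against 0.02, 0.06 and −0.08 in wildtype libraries. The 2 longest members ran with the short ones, at −0.21, 0.24 and 0.22 in knockout libraries, against −0.13, 0.20 and −0.07 in wildtype libraries.

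When the median of all genes of the same length class was subtracted in each library, the members' medians differed less between libraries. This alternative was added after the data were seen. The members' median became −0.054, 0.012 and 0.074 in knockout libraries, against −0.0076, 0.056 and −0.049 in wildtype libraries. Knockout replicates 2 and 3 and wildtype replicate 2 were still the highest, and knockout replicate 1 the lowest. Among the complexes, only complex I kept both features. Cytosolic ribosomal proteins, whose transcripts are also short, shared the order in part. The 81 genes of that list tested were at −0.30, 0.21 and 0.21 in knockout libraries, against −0.27, 0.09 and 0.18 in wildtype libraries, so that wildtype replicate 3 was high for ribosomal proteins and not for oxidative phosphorylation. The neuron marker list was at 0.16, 0.14 and 0.10 in knockout libraries, against 0.33, 0.27 and −0.66 in wildtype libraries, and its 15 genes summed to 8147 CPM in wildtype replicate 3 where the 5 other libraries held 13740 to 15590 CPM. Markers of the glia of the central nerve segment had lower fitted values in knockout. All 8 astrocyte markers did (median log2 fold change −0.67), and their summed level was 1294, 1590 and 1227 CPM in knockout libraries, against 1576, 2117 and 1853 CPM in wildtype libraries. All 10 oligodendrocyte markers did as well (median −0.60), at 2177, 3705 and 3102 CPM in knockout libraries, against 3786, 5798 and 2781 CPM in wildtype libraries. In each of these lists edgeR called 0 genes and DESeq2 called 1. At an unadjusted p under 0.05, edgeR had 3 astrocyte and 4 oligodendrocyte markers. The part of transcript length, RNA quality or cell makeup in the members' values was not tested.

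**Figure D3:**
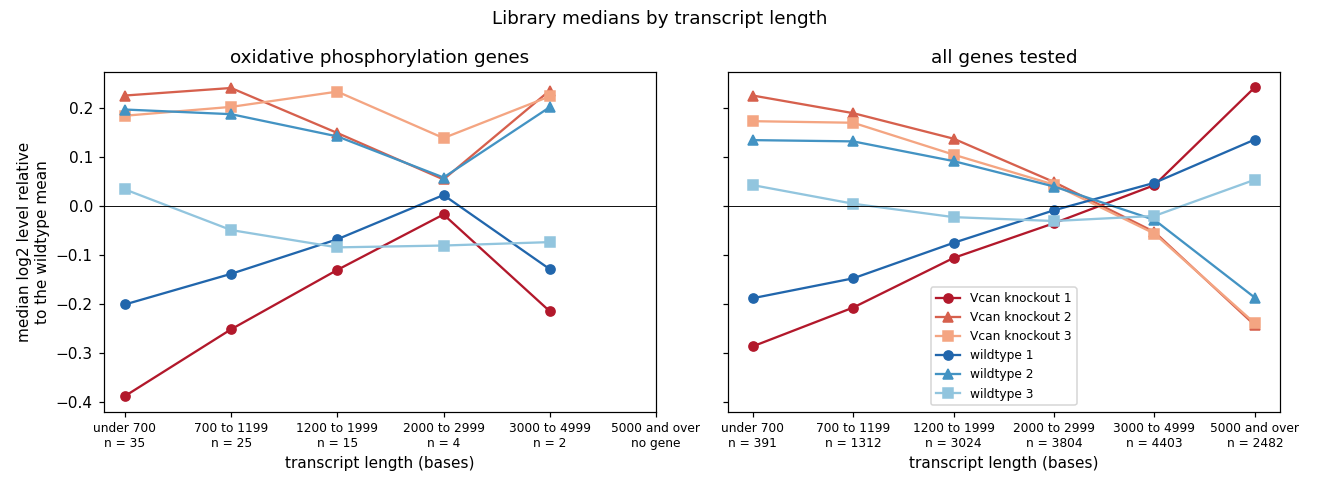
Median log2 level relative to the wildtype mean in each library, for oxidative phosphorylation genes and for all genes, by class of transcript length (horizontal axis in bases, vertical axis in log2 units). In the class under 700 bases knockout replicate 1 is the lowest library for members (−0.39) and for all genes (−0.29), and in genes of 5000 bases or more it is the highest (0.24).

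Paired isoforms of complex IV differed in their share of the RNA of the dissected nerves. The shares given here are of the CPM per 1000 bases of a subunit's isoforms. The common forms held nearly all of it. Cox4i2, the form known from lung and from oxygen-sensing cells, made up 0.50%, 0.529% and 0.433% of Cox4 in knockout libraries, against 0.639%, 0.414% and 0.435% in wildtype libraries. Cox6a2, the heart and skeletal muscle form, made up 0.0446% to 0.104% of Cox6a in knockout libraries and 0.0387% to 0.280% in wildtype libraries. Cox7b2, a form known from testis, made up 0.101% to 0.132% of Cox7b in knockout libraries and 0.0121% to 0.291% in wildtype libraries. In all 3 the group ranges overlapped.

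More of the alternative form was present for Cox6b, Cox7a and Cox8. Cox6b2, a form known from testis, made up 5.62%, 4.80% and 3.36% of Cox6b in knockout libraries, against 4.13%, 4.92% and 2.60% in wildtype libraries. The muscle form Cox7a1 made up 5.36%, 8.17% and 4.76% of Cox7a in knockout libraries, against 4.82%, 7.12% and 18.3% in wildtype libraries. The muscle form Cox8b made up 5.89%, 6.83% and 9.32% of Cox8 in knockout libraries, against 7.75%, 8.93% and 15.5% in wildtype libraries. Wildtype replicate 3 was the highest library for both muscle forms and the lowest for Cox6b2, and in each the other wildtype libraries lay among the knockout libraries.

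By level, Cox7a1 was at 4.49, 9.35 and 5.32 CPM in knockout nerves, against 4.38, 8.0 and 22.1 CPM in wildtype nerves. Its log2 fold change of −0.85 (SE 0.61) was 0.04 without wildtype replicate 3. Cox8b was at 8.96, 17.3 and 21.9 CPM in knockout nerves, against 12.3, 20.7 and 37.0 CPM in wildtype nerves, and its log2 fold change of −0.54 (SE 0.47) was −0.05 without that library. Cox6a2 was at 0.132, 0.347 and 0.151 CPM in knockout nerves, against 0.132, 0.768 and 0.117 CPM in wildtype nerves, and its log2 fold change of −0.69 (SE 0.86) was 0.75 without wildtype replicate 2. Each of the 3 muscle forms thus had its highest value in a single wildtype library.

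Markers of other tissues were high in the same libraries. The stria vascularis list, 9 genes of the ion-pumping lining of the cochlear duct, was at −1.04, 0.17 and −1.88 in median relative log2 level in knockout libraries, against −0.96, −0.41 and 1.68 in wildtype libraries. It summed to 718 to 1405 CPM in knockout libraries and 744 to 4959 CPM in wildtype libraries, highest in wildtype replicate 3 as Cox7a1 was. The hair cell list was also highest there, at 1.25. The skeletal muscle list, 11 of 12 genes tested, was at −0.70, −0.53 and −0.67 in knockout libraries, against −0.73, 1.46 and −0.63 in wildtype libraries, highest in wildtype replicate 2 as Cox6a2 was. Its summed level was 540 to 731 CPM in knockout libraries and 394 to 786 CPM in wildtype libraries, mostly of Pvalb, a calcium-binding protein that neurons make as well. Ckm, a defining muscle enzyme, was at or under 0.228 CPM outside wildtype replicate 2, where it had 1.80 CPM. The brown fat marker Ucp1 was at or under 0.244 CPM in every library. Cidea, another gene known from brown fat, went otherwise. It was at 1.07, 1.17 and 0.545 CPM in knockout libraries, against 1.07, 1.05 and 3.71 CPM in wildtype libraries, highest in wildtype replicate 3. The pericyte and smooth muscle list was highest there too, at 274 to 374 CPM summed in knockout libraries and 318 to 451 CPM in wildtype libraries. The part of these tissues in the isoform values was not tested.

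**Figure D4:**
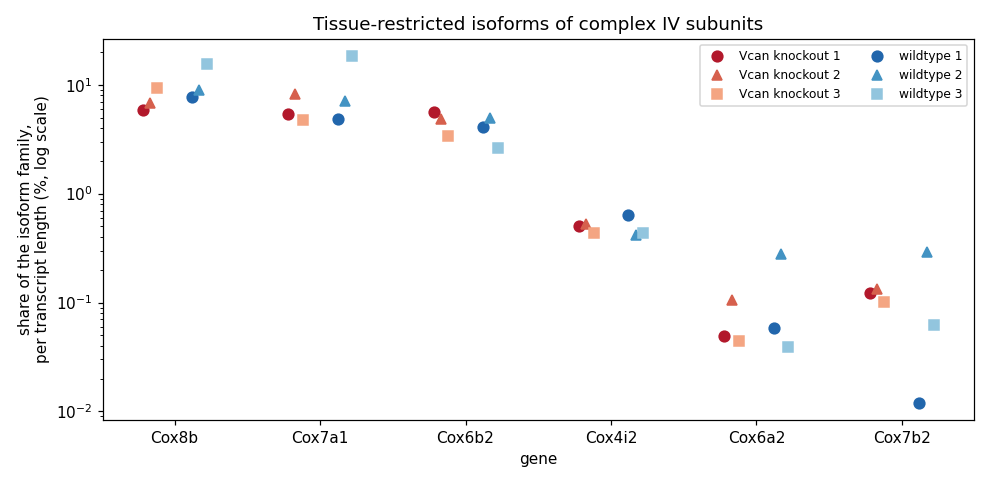
Share of the tissue-restricted isoform of 6 complex IV subunits in the CPM per 1000 bases of that subunit's isoforms (vertical log axis in percent), 1 point per library, knockout left of wildtype. Cox7a1 and Cox8b reach 18.3% and 15.5% in wildtype replicate 3, and their shares in the other libraries are 4.76% to 9.32%.

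Promoter sequences of Cox8a and Cox8b are shown as an example of a common and a muscle form. They are RefSeq sequences of GRCm38.p6, 250 bases before to 50 bases after the start of the gene, read 5′ to 3′ on the gene's strand. Capitals mark the letters CCGGAAG (the core bound by ETS factors), GGGCGG (a GC box) and TATAAA, on either strand. Cox8a is at chr19:7217567-7217866 (minus strand) and Cox8b at chr7:140900397-140900696 (minus strand).
Cox8a: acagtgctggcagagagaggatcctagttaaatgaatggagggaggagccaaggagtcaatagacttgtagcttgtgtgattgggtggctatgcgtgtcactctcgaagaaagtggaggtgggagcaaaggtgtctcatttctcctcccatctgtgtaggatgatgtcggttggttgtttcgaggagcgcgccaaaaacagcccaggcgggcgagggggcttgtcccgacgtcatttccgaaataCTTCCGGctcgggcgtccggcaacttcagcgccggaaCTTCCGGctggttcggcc
Cox8b: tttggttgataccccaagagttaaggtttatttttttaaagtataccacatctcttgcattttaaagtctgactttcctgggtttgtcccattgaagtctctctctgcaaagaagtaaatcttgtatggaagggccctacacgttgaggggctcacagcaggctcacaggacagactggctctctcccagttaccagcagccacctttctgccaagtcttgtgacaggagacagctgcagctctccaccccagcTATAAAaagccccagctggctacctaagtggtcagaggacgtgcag
The Cox8a window held the ETS letters at 2 places, both on the strand opposite to the gene's, and the Cox8b window held TATAAA and no other of these motifs. The other pair searched, Cox7a2 and Cox7a1, did not show this contrast. The window of the muscle form Cox7a1 held none of these motifs. That of the common form Cox7a2, around a start inside the span of the gene, held GGGCGG alone. A link of these letters to the levels was not tested.

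Subunit c of ATP synthase forms the rotating ring in the membrane and has 3 genes whose mature proteins are the same. Atp5g3 held 56.4%, 58.0% and 58.1% of their CPM per 1000 bases in knockout libraries, against 53.5%, 56.4% and 57.5% in wildtype libraries. Atp5g1 held 35.0%, 35.3% and 35.9% in knockout libraries, against 38.6%, 37.2% and 32.4% in wildtype libraries. Atp5g2 held 8.68%, 6.65% and 5.97% in knockout libraries, against 7.88%, 6.41% and 10.2% in wildtype libraries. The order Atp5g3, Atp5g1, Atp5g2 was the same in all 6 libraries, and in no gene were the groups apart. Reads of these genes are uncertain, since 87.4% of the 50-base stretches of Atp5g2 and 66.0% of those of Atp5g1 occur in another gene.

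Ndufs5, a small accessory subunit of complex I (chr4:123712710-123718186 in GRCm38, minus strand), had 0 counts in the 3 knockout libraries and 0, 1 and 0 counts in the wildtype libraries. The same table lists BC002163, a processed pseudogene in the GENCODE annotation (chr16:42955631-42955949, plus strand) that is a near-copy of the Ndufs5 coding sequence. Its 319 bases aligned to the Ndufs5 transcript with 2 mismatches (99.4% identity) and covered all 318 coding bases. The first 120 coding bases, which hold both mismatches, are shown for Ndufs5 (chr4:123715960-123716079, minus strand, in a single exon) and for BC002163 (chr16:42955631-42955750, plus strand). Capitals mark the mismatches.
Ndufs5: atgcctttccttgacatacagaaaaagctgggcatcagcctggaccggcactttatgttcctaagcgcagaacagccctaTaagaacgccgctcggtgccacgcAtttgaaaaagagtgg
BC002163: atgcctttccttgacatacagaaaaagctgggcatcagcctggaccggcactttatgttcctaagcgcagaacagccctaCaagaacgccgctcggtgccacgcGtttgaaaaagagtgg
Of the 50-base stretches in the whole Ndufs5 transcript, 41.2% occur in another gene, and the others do not.

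BC002163 had 1264, 2142 and 3795 counts in knockout libraries, against 102, 99 and 69 counts in wildtype libraries. This is 16.7, 23.2 and 44.0 CPM in knockout nerves, against 1.22, 1.1 and 0.807 CPM in wildtype nerves. Every knockout library lay above every wildtype library. The log2 fold change was 4.74 (SE 0.44, 95% interval 3.70 to 5.79), past the threshold in edgeR (adjusted p = 0.0208) and in DESeq2 (adjusted p = 1.90e-29). In the authors' deposited table the log2 fold change was 3.02 with an adjusted p of 7.42e-28. Leaving out 1 library at a time gave 4.24 to 5.01, past the edgeR threshold in 2 of 6 cases: adjusted p was 0.0282 without knockout replicate 1 and 0.0352 without knockout replicate 3, against 0.0778 without knockout replicate 2 and 0.132, 0.143 and 0.114 without wildtype replicates 1, 2 and 3. BC002163 is no member, and it was named after its values were seen. How reads that match both loci were counted is not given in the sources used here, so neither row gives the level of Ndufs5 messenger RNA in either genotype.

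**Figure D5:**
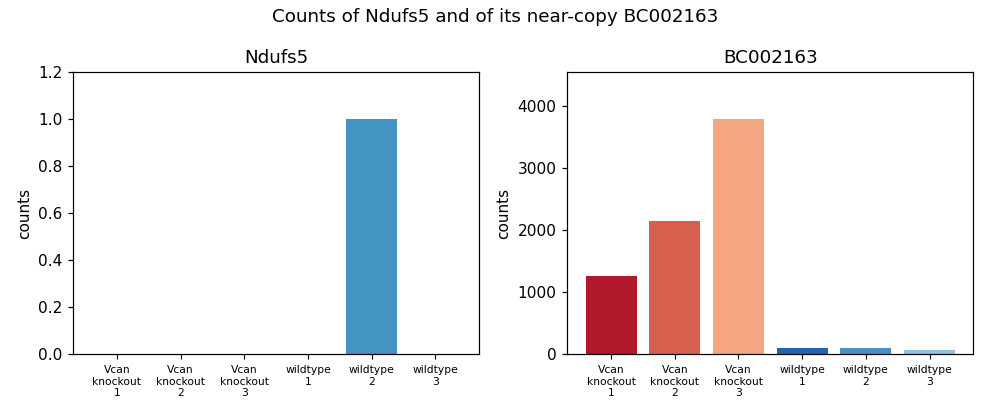
Counts of Ndufs5 and of its near-copy BC002163 in each library, knockout left of wildtype (vertical axes in counts, with a scale of their own). Ndufs5 has 1 count in a single library, and BC002163 has 1264 to 3795 counts in the knockout libraries and 69 to 102 in the wildtype libraries.

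Other members share sequence too, Atp5g2, Atp5l, Atp5g1, Atp5h and Uqcrb more than Ndufs5. No 50-base stretch of 48 members occurs in another gene, 18 members share over 10% of such stretches, and 4 share over 50%: Atp5g2, Atp5l, Atp5g1 and Atp5h. The spans of 16 members overlap another gene counted in the table. Whether the counting used strand is not given, so reads of overlapping genes may not be separated.

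The members lie on 19 chromosomes, 10 of them on chromosome 7, and what they share beyond function was sought in their promoters. RefSeq promoters were found for 69 of the 83 members and for 12909 genes tested, for some of them around a start that lies inside the span of the gene. The half-site GCGCATG of NRF1, a factor known for driving respiratory chain genes, was in 13 member promoters (18.8%), against 6.93% of all. The palindrome of 2 half-sites that share 4 bases, one on each strand, was in 5 (7.25%), against 1.94%. The letters AAGATGG, part of the YY1 site, were in 11 (15.9%), against 7.69%, and the ETS core CCGGAAG was in 16 (23.2%), against 16.8%. GC boxes ran the other way, with GGGCGG in 29 member promoters (42.0%), against 63.7%, and TATAAA was in 7 (10.1%), against 9.73%. All letters were searched on both strands, the palindrome contains the half-site, and these are matches of letters only.

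The 5 members with the exact palindrome were Atp5g2, Atp5k, Cox6a1, Ndufa11 and Uqcrc1. The stretch around it, up to 40 bases on each side, is shown for the 4 in which it lies before the start of the gene, with the palindrome in capitals. They are Atp5g2 (chr15:102671040-102671129, minus strand), Atp5k (chr5:108434400-108434489, minus strand), Cox6a1 (chr5:115349071-115349160, minus strand) and Ndufa11 (chr17:56717662-56717751, plus strand), all in GRCm38.p6 from RefSeq.
Atp5g2: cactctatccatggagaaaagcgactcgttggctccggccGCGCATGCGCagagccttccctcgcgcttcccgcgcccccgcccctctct
Atp5k: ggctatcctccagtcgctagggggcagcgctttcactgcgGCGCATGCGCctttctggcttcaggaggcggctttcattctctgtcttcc
Cox6a1: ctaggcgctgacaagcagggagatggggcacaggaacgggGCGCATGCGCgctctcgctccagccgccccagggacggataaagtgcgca
Ndufa11: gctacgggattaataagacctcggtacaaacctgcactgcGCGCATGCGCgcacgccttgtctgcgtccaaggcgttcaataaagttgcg
Of these, Cox6a1, the common form of a complex IV subunit, was at 225, 279 and 284 CPM in knockout nerves, against 189, 230 and 254 CPM in wildtype nerves (log2 fold change 0.23, SE 0.17). Its groups overlapped through knockout replicate 1. Atp5k, a membrane subunit of ATP synthase, was at 62.2, 79.4 and 83.6 CPM in knockout nerves, against 62.4, 82.1 and 70.6 CPM in wildtype nerves, also overlapping.

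Factors that assemble the complexes were read from the same fit. Of 14 complex I assembly factors tested, 10 were higher and 4 lower in knockout by fitted value, 0 passed and the median log2 fold change was 0.05. Complex II had 2 lower of 2 tested, complex IV 14 higher and 4 lower of 18 (median 0.05), and complex V 4 higher and 1 lower of 5 (median 0.13), all with 0 called by edgeR and DESeq2. Of 5 complex III factors tested, 3 were higher and 2 lower, and DESeq2 and the authors' table called 1. That gene was Lyrm7, a chaperone that guides the Rieske protein into complex III, which is named after its values were seen. Lyrm7 was at 2.62, 2.51 and 3.47 CPM in knockout nerves, against 8.80, 9.09 and 6.29 CPM in wildtype nerves, with no overlap. Its log2 fold change was −1.49 (SE 0.25), short of the threshold in edgeR (unadjusted p = 0.000654, adjusted p = 0.178). Its client gene Uqcrfs1, described above, had overlapping groups.

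Metabolic neighbours likewise had no gene past the threshold in either tool. Of 18 citric acid cycle genes, 12 were higher and 6 lower in knockout (median log2 fold change 0.08). Of 16 regulators of mitochondrial biogenesis, 9 were higher and 7 lower (median 0.01). The coactivator Ppargc1a was at 177 ± 8.56 CPM in knockout and 175 ± 18.0 CPM in wildtype nerves (SD, n = 3 each). Of 16 genes of the mitochondrial membranes and protein import, 11 were higher and 5 lower (median 0.09), among them the ADP/ATP carrier Slc25a4 at 1169 ± 239 CPM in knockout and 1092 ± 110 CPM in wildtype nerves. Of 8 subunits and electron carriers outside the symbols used, 4 were higher and 4 lower (median −0.01). Cyc1, the cytochrome c1 of complex III, was at 189, 283 and 302 CPM in knockout nerves, against 208, 269 and 187 CPM in wildtype nerves, the order of libraries that most members had except in its lowest library.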

How the data were processed

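Libraries were made from total RNA with a TruSeq kit, per the labels' protocols. Per the submitters' processing notes, the build was mm10 and the tools were HTSeq, a read counter, and DESeq2. Read length, strandedness and the handling of reads that match several genes are not stated in them.

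The deposited table holds raw counts per gene from the authors, not normalised. It also holds the authors' comparison, per the file headers: a normalised mean signal, log2 fold changes and their standard errors, the statistic of the test, which is a score, and p-values before and after adjustment. These were used only where the text names the authors' table.

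Of 24067 rows, 5 repeated symbols were joined. Counts were tested in R 4.3.3 with edgeR 4.0.16 (filterByExpr, TMM, robust quasi-likelihood F test, 2-sided, no covariate), fitted over 16722 genes, with Benjamini-Hochberg adjustment over all of them and a threshold of 0.05. DESeq2 1.42.0 was an alternative. CPM values are TMM-scaled (factors 0.964 to 1.02), and relative log2 levels add 0.1 CPM. The pipeline was tested on simulated data. Transcript lengths and 50-base stretches come from GENCODE vM21 transcripts, for each gene the shortest principal transcript with a curated RefSeq entry. Coordinates and promoters come from RefSeq (GRCm38.p6). Intervals cover the spread between libraries, and limits for a count of 0 cover counting error alone. The labels name no molecular identifiers, so reads need not be independent molecules.

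The members and lists were chosen with earlier results of these data known. Genes named were the isoform pairs and, in each complex, the 2 members of highest mean CPM and the 2 of lowest edgeR p, which gave 33 members, and up to 2 genes of each other list. Others are marked as named after their values were seen. Values of a member and of a gene of another list that this rule takes are not reported here.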

Additional observations from a re-analysis of the deposited data

How the results depend on the processing

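The number of members called was 0 under every alternative run: other size factors, library totals, no filter, DESeq2, the replicate number as a block, leaving out each library and leaving out the 3 genes that are no subunits. The number of genes called in the whole table was 256 with DESeq2, 3 with the replicate block, and 3 to 14 without 1 library, against 23. Whether replicate numbers pair the samples cannot be settled here, since deviations were taken within groups of 3 libraries. Their correlations between libraries of the same number were 0.48, 0.32 and −0.16, and the block is given only here. The number of members with the higher value in knockout was 32 to 70 without 1 library, and their median log2 fold change was −0.03 to 0.19. Centred on genes of like transcript length the count was 45 and the median 0.02.

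Of 33 members named, 19 had fitted log2 fold changes that turned sign in some alternative, 40 of these 43 cases by leaving out a library. Cox7a2 was at −0.0044 with no filter and at −0.0022 with the replicate block, and Cox7b2 at 0.56 with the replicate block. Without 1 library, log2 fold changes ran from −0.016 to 0.072 for Atp5b, −0.021 to 0.30 for Atp5g1, −0.13 to 0.038 for Atp5g2, −0.063 to 0.22 for Atp5j2, −0.025 to 0.19 for Atp5k, −0.070 to 0.14 for Cox4i1, −0.11 to 0.13 for Cox4i2, −1.25 to 0.75 for Cox6a2, −0.079 to 0.16 for Cox6b1, −0.077 to 0.56 for Cox6b2, −1.23 to 0.039 for Cox7a1, −0.074 to 0.13 for Cox7a2, −0.078 to 0.20 for Cox7b, −0.69 to 1.82 for Cox7b2, −0.071 to 0.27 for Cox8a, −0.063 to 0.26 for Ndufa4, −0.00090 to 0.082 for Sdha, −0.035 to 0.14 for Sdhb and −0.12 to 0.084 for Sdhd. The cause was not tested. Ndufv3, Cox7a2l and Atp5sl kept their sign in all of them. BC002163 was at 4.63 with the replicate block (edgeR adjusted p = 0.233).

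With 3 libraries a group, a member with the median SE of 0.19 could differ by less than its interval without being called. Low isoforms such as Cox6a2 and Cox7b2 rest on few counts.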
